A study of Schistosoma mansoni with 6 samples.

Results

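G protein coupled receptors and the neuropeptides that act on some of them were compared between anterior and posterior fragments of adult female *Schistosoma mansoni*, a blood fluke. Genes were chosen by words in their deposited annotation (G protein coupled receptor, GPCR, rhodopsin, opsin, muscarinic, metabotropic, neuropeptide, allatostatin, tachykinin, and the biogenic amines and their receptors), leaving out annotations with transporter, kinase, channel or myopsin. The words matched 97 genes, of which 92 had reads, among 9947 genes with reads and 10831 genes listed. The other 5 matches were at 0 in both groups. By annotation the 92 genes comprised 5 peptide precursors, 13 peptide receptors, 27 amine receptors, 2 muscarinic receptors, 3 metabotropic glutamate receptors, 3 opsins, 21 orphan receptors of the rhodopsin type and 17 other G protein coupled receptors, 12 of the 92 being named fragments. The remaining gene, Smp_151190, is annotated as a cGMP enzyme sensitive to rhodopsin and is not a receptor. Among the genes grouped as peptide precursors, Smp_159950 and Smp_088360 are labelled prohormone and prepropeptide. The labels of Smp_117340, Smp_134960 and Smp_041880 read only peptide (allatostatin:somatostatin). They do not say whether a gene is a precursor or a receptor, and the grouping of these 3 rests on the word peptide alone.

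G protein coupled receptors cross the cell membrane and pass a signal from outside to trimeric G proteins inside, which then act on enzymes that make second messengers such as cyclic AMP. Flatworms have no circulatory system, and their nervous system, with a brain in the anterior end and nerve cords along the body, signals through neuropeptides, biogenic amines and acetylcholine. Neuropeptides are cut from precursor proteins, and many are amidated at their end before release.

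Heads were the fragments cut anterior to the ovary and tails those cut posterior to it, from females separated from males after recovery from mice 7 to 8 weeks p.i. The labels give no strain, and no treatment was applied. Each group had 3 libraries, each from a pool of fragments and an independent round of RNA extraction, so the p-values measure the spread between these pools and not between single worms. The deposited values are group means of read numbers divided by a size factor for each library, here called normalized counts, and the reads of single libraries were solved from them. The solved libraries are known by their size factors alone, and values are given throughout in one order: size factors 2.55, 2.35 and 2.08 among heads, then 0.719, 0.352 and 0.320 among tails. The size factors correspond to about 25.4 to 31.1 M reads per head library and 5.25 to 11.8 M per tail library, so that a low level is far less precise in tails, and 40 of the 91 genes with solved tail reads had at most 10 reads over the 3 tail libraries. In RNA from whole fragments, fewer cells of a type and less RNA per cell cannot be told apart.

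The vitellarium, the organ that makes yolk cells, fills most of the female posterior, and transcripts of its cells marked the tails. The 7 vitelline markers together reached 6715 normalized counts in heads against 582884 in tails. Neuron markers, chosen by names of synaptic and transmitter proteins, mostly went the other way. Of 24, 19 had a lower mean in tails and 5 a higher one, and their summed level was 18271 in heads and 10909 in tails. The names also took in an extended synaptotagmin (Smp_050630, 2429 in heads and 2513 in tails) and synaptobrevin YKT6 (Smp_047450, 929 and 1243). The labels of these genes do not tie them to neurons. Of 26 micro-exon genes, several of which mark the oesophageal gland at the anterior end, 20 had a lower mean in tails and 6 a higher one, and of 10 tested 3 were called lower and 2 higher. Their sum was 135304 in heads and 7072 in tails, with 61.9% of the head sum in 3 genes, while 4 with head means of 0.273 to 3.62 were at 0 in tails and 1 was at 0 in heads. The micro-exon gene Smp_159830 went the other way, at 1.40 in heads against 134 in tails. Of 22 genes with names of muscle proteins, 16 had a lower mean in tails and 6 a higher one, among the latter a titin (Smp_157020) at 136 in heads against 1187 in tails. Of 6 tested, 4 were called lower and 1 higher. Their sum was 130602 in heads and 43520 in tails, with 62.6% of the head sum in 3 genes. The names also took in Smp_046060, a myosin labelled non muscle (12233 in heads, 6872 in tails), and Smp_155840, labelled cellular myosin (43.2 and 68.2). In the comparison described below, 40.1% of all genes tested were called lower in tails and 22.6% higher. The part of these tissues in the results for receptors and peptides was not tested.

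Most of the receptors and peptides were lower in tails. The groups were compared with limma on log2(normalized count + 1), with Benjamini-Hochberg adjustment over all 5165 genes that had reads solved in both groups and at least 10 reads in all. Of the 92 genes, 82 could be tested, and at an adjusted p under 0.05 the test called 57 of them lower in tails (69.5%) and 3 higher (3.66%), while 22 were not called. Over all genes tested, 40.1% were called lower and 22.6% higher. In 68 of the 82 genes (82.9%) all 3 tail libraries were under all 3 head libraries, against 45.8% of all genes tested, and in 3 they were over them, against 25.9%. The median difference between tails and heads was -1.70 on the log2 scale for the 82 genes and -0.37 for all genes tested. From the group means alone, the median log2 fold change was -1.63 for the 83 members with reads in both groups and 0.00 for 9452 genes of the whole table. The test leaves out abundant genes, whose reads could not be solved, so both backgrounds are given. Among the 57 genes called lower, 30 had a log2 fold change of -2 or below or were at 0 in tails, 26 lay between -2 and -1 and 1 was above -1. Of the 22 genes tested and not called, 18 had a negative difference and 4 a positive one.

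**Figure D1:**
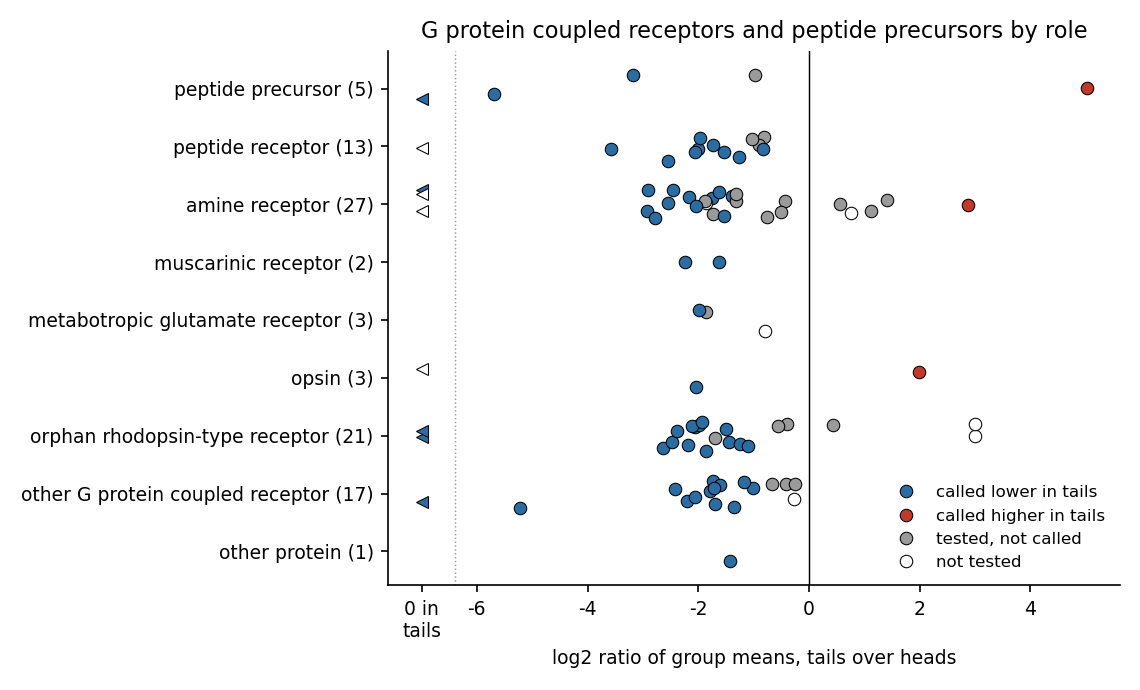
Log2 ratio of group means, tails over heads, of each of the 92 genes (1 point per gene, spread vertically within its role; number of genes in parentheses). Triangles on the left are the 9 genes at 0 in tails. Most points lie between -3 and 0. The 3 genes called higher in tails are an amine receptor, an opsin and Smp_041880, which was grouped as a peptide precursor.

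**Figure D2:**
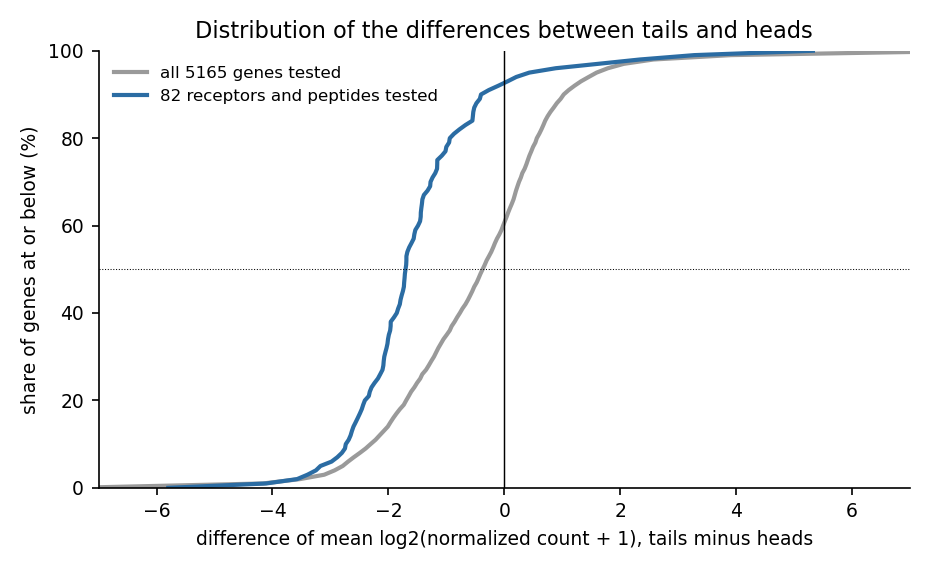
Share of genes (vertical axis, %) at or below each difference of mean log2(normalized count + 1), tails minus heads (horizontal axis), for all 5165 genes tested (grey) and the 82 receptors and peptides tested (blue). The medians, where the curves cross the dotted line, are -0.37 and -1.70.

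The 5 genes grouped as peptide precursors had the widest spread of any role. They held the largest log2 fold changes in both directions among the genes tested with reads in both groups. The largest rise was that of Smp_041880, whose label does not say precursor or receptor. The labelled precursors, Smp_159950 and Smp_088360, were both lower in tails. Neuropeptide Y prohormone 1 (Smp_159950) belongs to a family known in vertebrates for neuropeptide Y, which stimulates feeding. Its normalized counts were 104, 119.6 and 97.4 in heads and 0, 0 and 6.26 in tails. It was close to absent from tails, where 2 reads in all were found, both in 1 library, against 750 in heads. The log2 fold change of the means was -5.68, with a counting interval of -9.27 to -4.37 (95%, exact binomial on summed reads), and the limma difference was -5.80 ± 0.74 (SE, adjusted p = 0.000488). Counting intervals cover counting error only, since reads copied by PCR are not independent molecules. Without the tail library in which the reads lay, the gene was at 0 in tails.

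The neuropeptide F prepropeptide (Smp_088360), whose product is the invertebrate counterpart of neuropeptide Y, had normalized counts of 55.7, 46.8 and 44.6 in heads and of 1.39, 8.51 and 6.26 in tails. All head libraries were above all tail libraries, with a log2 fold change of -3.19 and a limma difference of -3.18 ± 0.53 (SE, adjusted p = 0.00144). The 3 other genes of this role are labelled peptide (allatostatin:somatostatin), after inhibitors of hormone release in insects and mammals. Whether they encode precursors or receptors is not given by that label. The 3 did not move together. Smp_117340 was at 0 in every tail library and had 7.06, 6.39 and 6.72 in heads, from 47 reads. Against the 3 reads over the tail libraries that a count of 0 allows (2.16 normalized counts), its head level was at least 3.12-fold higher, and limma called it lower in tails (adjusted p = 0.000393). That bound takes the head level as measured; with counting error in heads as well, the counting interval of its log2 fold change ended at -1.29. Smp_134960 had levels of 29.8, 35.8 and 19.2 in heads and of 6.95, 14.2 and 21.9 in tails, and the groups overlapped (log2 fold change -0.98, adjusted p from limma = 0.0851), although it was called lower in 2 of 13 alternative analyses.

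The third of these, Smp_041880, was by far the most tail-enriched of the 92 genes. Its normalized counts were 1.96, 11.1 and 22.1 in heads and 357, 329 and 451 in tails, with means of 11.7 ± 10.1 in heads and 379 ± 63.6 in tails (SD, n = 3). Every tail library was above every head library by more than 10-fold, from 77 reads in heads and 517 in tails. The log2 fold change was 5.02, a 32.4-fold higher mean in tails, with a counting interval of 4.73 to 5.44 and a limma difference of 5.33 ± 0.66 (SE, adjusted p = 0.000442). The head libraries differed from each other by 11.3-fold between the lowest and the highest, in an order shared by a vitelline transcript: the tyrosinase Smp_013540 had 3.53, 67.3 and 262 in the same head libraries. Of 76 members with at least 20 head reads, 2 had a head ratio of at least 2 between these 2 libraries (2.63%), against 3.07% of all genes tested and 7.94% of those called higher in tails. Other vitelline markers with solved head reads did not show so steep an order. Smp_000280 rose in the same order but only from 536 to 578 and 696, and Smp_000290, with few head reads, was at 0.392, 1.28 and 0. The part of tissue carried over from tails in the head values of Smp_041880 was not tested. Without the head library of size factor 2.08, the log2 fold change of Smp_041880 was 5.86, and without that of 2.55 it was 4.52.

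A fragment of Smp_041880 was cloned in the study, which used its cloned fragments as probes for in situ hybridization of female worms. The in situ result for this gene is not reported here. The sequence at hand is the primer pair of that fragment, not the stretch between the primers. It is shown because this is the one gene grouped as a peptide precursor that was higher in tails. Each primer is written 5′ to 3′, the reverse primer on the strand opposite to that of the forward primer.
Smp_041880 forward primer: agttggtggttttcgtgcat
Smp_041880 reverse primer: actcgtcccatttccatacg

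**Figure D3:**
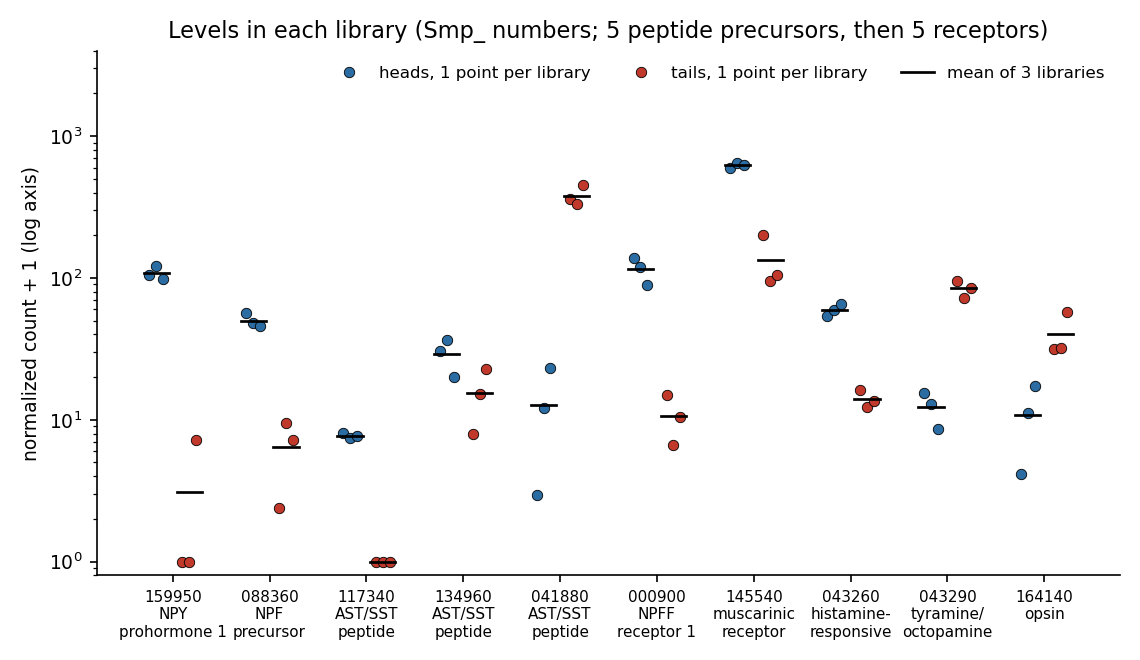
Normalized count plus 1 (log axis) in each head (blue) and tail (red) library, with the mean of 3 libraries as a line. The genes are the 5 grouped as peptide precursors and 5 receptors. NPY is neuropeptide Y, NPF neuropeptide F, NPFF neuropeptide FF and AST/SST the label peptide (allatostatin:somatostatin), which does not say precursor or receptor. A value of 1 on the axis is a count of 0, which all 3 tail libraries show for Smp_117340, while Smp_041880, Smp_043290 and Smp_164140 have all tail points above all head points.

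Of the 13 peptide receptors, 12 were tested, 9 were called lower in tails (75.0%) and none higher, against 40.1% and 22.6% of all genes tested. In all 12 every tail library was below every head library, against 45.8% of all genes tested. Their median log2 fold change was -1.63. Neuropeptide FF receptor 1 (Smp_000900), which in mammals binds peptides ending in arginine and amidated phenylalanine, had the largest change among them. Its normalized counts were 138, 118 and 87.8 in heads and 13.9, 5.67 and 9.39 in tails. Its mean was 11.9-fold higher in heads, with a log2 fold change of -3.57 and a limma difference of -3.49 ± 0.37 (SE, adjusted p = 0.000225). Among the others past a log2 fold change of -2, a neuropeptide receptor (Smp_118040) had levels of 63.1, 74.9 and 56.6 in heads and of 15.3, 8.51 and 9.39 in tails (log2 fold change -2.55, adjusted p from limma = 0.000492). A receptor similar to that for tachykinins (Smp_170020), peptides that in mammals contract the gut, had levels of 100.4, 112 and 107 in heads and of 31.98, 17.02 and 28.2 in tails (log2 fold change -2.05, adjusted p from limma = 0.000703).

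Neuropeptide F receptor 76f (Smp_018690), of a receptor type that in flies binds neuropeptide F, had levels of 176, 172 and 185 in heads and of 55.6, 42.6 and 34.4 in tails. Its head and tail libraries were well apart (log2 fold change -2.01, adjusted p from limma = 0.000299). The capa receptor (Smp_141880), which in insects acts in the excretory tubules, had levels of 21.6, 17.9 and 22.6 in heads and of 6.95, 5.67 and 3.13 in tails (log2 fold change -1.98, adjusted p from limma = 0.00359). A neuropeptide receptor with a high level in both groups, Smp_133550, had levels of 232, 259.7 and 266 in heads and of 84.8, 79.4 and 97.03 in tails (log2 fold change -1.54, adjusted p from limma = 0.000235). A pair of neighbouring genes both annotated as invertebrate neuropeptide Y receptors had the smallest differences beside another neuropeptide Y receptor and the allatostatin receptor. Smp_126010 had levels of 27.8, 27.7 and 28.8 in heads and of 23.6, 11.3 and 6.26 in tails (log2 fold change -1.03) and did not pass the test (adjusted p from limma = 0.0559). Smp_007070 had levels of 68.2, 73.2 and 59.02 in heads and of 40.3, 17.02 and 56.3 in tails (log2 fold change -0.82) and did not pass it either (adjusted p from limma = 0.0810). In each of them 1 tail library came close to the lowest head library. Smp_126010 was called lower in 5 of 13 alternative analyses, among them that without the tail library of size factor 0.719 (log2 fold change -1.67, adjusted p from limma = 0.00476). Smp_007070 was called lower in 3 of 13, among them that without the tail library of size factor 0.320 (adjusted p from limma = 0.0284). The allatostatin receptor (Smp_203500) was the 1 gene called lower with a log2 fold change above -1, at 92.3 in heads against 52.2 in tails (-0.82, adjusted p from limma = 0.0118). Its call was lost without the head library of size factor 2.35 or 2.08 (adjusted p from limma = 0.0517 and 0.0528). The last peptide receptor, Smp_172170, annotated to neuropeptide Y, had 3 reads in heads and none in tails and was not tested.

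Biogenic amines, made from amino acids, include serotonin, which stimulates movement in flatworms, and dopamine, histamine, tyramine and octopamine. Of the 27 amine receptors, 23 were tested, with 12 called lower in tails (52.2%), 1 higher (4.35%) and 10 not called, against 40.1% lower and 22.6% higher over all genes tested. Their median log2 fold change was -1.57. The 6 serotonin receptors all had a negative log2 fold change, from -2.90 to -1.32, and 5 of them were called lower in tails. Smp_134820, annotated as type 1B, had levels of 36.1, 26.8 and 23.5 in heads and of 2.78, 5.67 and 3.13 in tails (log2 fold change -2.90, adjusted p from limma = 0.000755). Smp_149770, annotated as type 1A, had levels of 37.6, 38.7 and 31.7 in heads and of 12.5, 0 and 3.13 in tails (log2 fold change -2.79, adjusted p from limma = 0.0102), with tail libraries that differed widely and a log2 fold change of -4.52 without that of size factor 0.719. Smp_156210 had levels of 88.6, 91.1 and 85.4 in heads and of 29.2, 19.9 and 15.6 in tails (log2 fold change -2.03, adjusted p from limma = 0.000755). For these 3 receptors no tail library reached the lowest head library. The serotonin receptor with the highest level, Smp_126730, had levels of 214, 245 and 249.5 in heads and of 98.7, 48.2 and 62.6 in tails (log2 fold change -1.76, adjusted p from limma = 0.000897).

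Dopamine relaxes the body wall muscle of schistosomes. Of 9 dopamine receptors with reads, 7 were tested, 2 were called lower in tails (28.6%, against 40.1% of all genes tested) and none higher. In 3 of the 7 (42.9%) all tail libraries were under all head libraries, against 45.8% of all genes tested. Smp_127720 had levels of 49.01, 46.4 and 45.6 in heads and of 9.73, 5.67 and 3.13 in tails (log2 fold change -2.93, adjusted p from limma = 0.000722). The most abundant, the type 2 receptor Smp_127310, had 296, 187 and 194 in tails, and its head reads could not be solved. Its mean was 824 in heads against 226 in tails (log2 fold change -1.87, no test). Smp_043340 was at 0 in tails and had 2.35, 3.41 and 3.36 in heads, at least 1.39-fold higher than the level that 3 tail reads allow (adjusted p from limma = 0.00254), with a counting interval of the log2 fold change that ended at -0.053, close to 0. The D1 type receptor Smp_202470 and dopamine receptor I (Smp_159860) were not called, with log2 fold changes of -0.50 and -0.76; they were called lower in 2 and 1 of 13 alternative analyses.

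The octopamine receptor of the oamb type (Smp_150180) had levels of 49.8, 40.9 and 41.7 in heads and of 11.1, 8.51 and 3.13 in tails (log2 fold change -2.54, adjusted p from limma = 0.00187). A biogenic amine receptor of unstated ligand (Smp_059400) had levels of 11.4, 11.9 and 7.68 in heads and of 2.78, 2.84 and 0 in tails (log2 fold change -2.46, adjusted p from limma = 0.0122). Both were lower in every tail library than in any head library. Of the 8 genes named amine GPCR, 6 were tested and 2 were called lower (33.3%, against 40.1% of all genes tested). The untested Smp_027940 had 3 reads and Smp_180140 had 1 read, all in heads. One of these 8, Smp_178420, had levels of 1.96, 3.83 and 3.84 in heads and of 8.34, 14.2 and 3.13 in tails, and the difference did not pass the test (log2 fold change 1.41, adjusted p from limma = 0.129). It passed, as higher in tails, with voom weights (adjusted p from limma = 0.0282) and without the tail library of size factor 0.320, its lowest.

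The receptor for tyramine and octopamine, Smp_043290, was the 1 amine receptor called higher in tails. Both are invertebrate transmitters related to noradrenaline, and octopamine is made from tyramine. The normalized counts were 14.5, 11.9 and 7.68 in heads and 94.6, 70.9 and 84.5 in tails, with means of 11.4 ± 3.45 in heads and 83.3 ± 11.9 in tails (SD, n = 3). Every tail library was above every head library, from 81 head reads and 120 tail reads. Its mean was 7.33-fold higher in tails, with a log2 fold change of 2.87, a counting interval of 2.48 to 3.32 and a limma difference of 2.80 ± 0.32 (SE, adjusted p = 0.000299). Its head libraries ran in the opposite order to those of Smp_041880 and of the tyrosinase, being lowest where these were highest.

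In the RefSeq annotation of assembly ASM23792v2, which served here for gene order only and lists 96 of the 97 matching genes, Smp_043290 lies in a run of 11 protein-coding genes of which 8 match the words. The first of the run, the histamine-responsive receptor Smp_043260, had levels of 53.3, 58.7 and 64.3 in heads and of 15.3, 11.3 and 12.5 in tails, and it was called lower in tails (log2 fold change -2.17, adjusted p from limma = 0.000519). A pair of dopamine receptor genes lies between it and Smp_043290, and both had few reads: Smp_043270 had levels of 0, 0.851 and 2.40 in heads and of 1.39, 5.67 and 0 in tails and Smp_145520 had levels of 1.96, 0.851 and 0.960 in heads and of 2.78, 0 and 0 in tails. Neither was called (adjusted p from limma = 0.628 and 0.487). Without the tail library of size factor 0.719, the only one with its reads, Smp_145520 was called lower (adjusted p from limma = 0.0448). On the other side of Smp_043290, Smp_043300 and Smp_043320 were at 0 in all libraries and Smp_043340, described above, was at 0 in tails. At the other end of the run lies the muscarinic receptor Smp_145540, which was lower in tails. Of the 8 matching genes in this run, Smp_043290 was thus the 1 gene called higher in tails, with genes called lower on both sides. Other pairs of adjacent genes had like signs where both had reads in both groups, except Smp_010470, which had 3 reads in all, beside Smp_127720; of all 83 genes with reads in both groups, 73 had a negative log2 fold change.

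**Figure D4:**
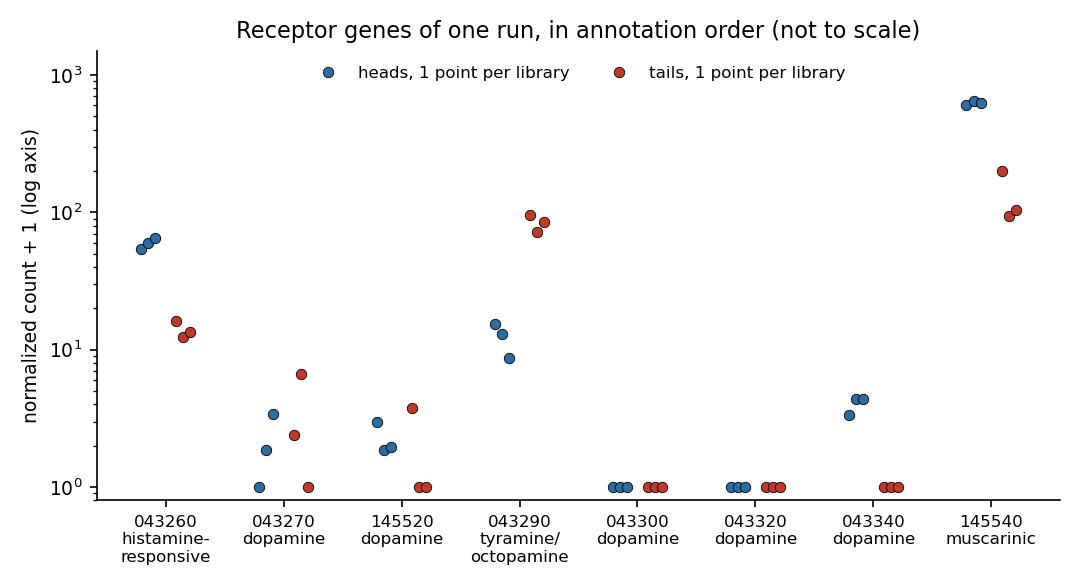
Normalized count plus 1 (log axis) in each head (blue) and tail (red) library for the 8 receptor genes of the run, in annotation order (horizontal axis, not to scale, genes of other kinds left out). Smp_043290 has all tail points above all head points, Smp_043260 and Smp_145540 have the reverse, and Smp_043300 and Smp_043320 are at 0.

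Acetylcholine acts on worm muscle through ion channels and through muscarinic receptors, which are coupled to G proteins. Both muscarinic receptors were called lower in tails, against 40.1% of all genes tested. The call of 1 was lost without either of 2 head libraries. Smp_145540 had levels of 599, 649.6 and 627 in heads and of 200.2, 93.6 and 103 in tails (log2 fold change -2.24, limma difference -2.32 ± 0.27, SE, adjusted p = 0.000339). Smp_152540 had levels of 61.6, 59.6 and 38.4 in heads and of 30.6, 8.51 and 12.5 in tails (log2 fold change -1.63, limma difference -1.73 ± 0.47, SE, adjusted p = 0.0134). The call of Smp_152540 was lost without the head library of size factor 2.55 or 2.35 (adjusted p from limma = 0.0588 and 0.0578), and leaving out the tail library of 0.719 gave a log2 fold change of -2.34. In both genes the tail library of size factor 0.719 was the highest of its group, yet below every head library.

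Metabotropic glutamate receptors answer glutamate, a transmitter of fast synapses elsewhere, with a slower response through G proteins. All 3 had a lower mean in tails, and 1 of the 2 tested was called lower (50%, against 40.1% of all genes tested). Smp_150370 had levels of 63.5, 71.1 and 73.9 in heads and of 19.5, 11.3 and 21.9 in tails (log2 fold change -1.98, adjusted p from limma = 0.00123). Its neighbour Smp_052660 had levels of 39.2, 43.8 and 33.1 in heads and of 23.6, 8.51 and 0 in tails (log2 fold change -1.85) and was not called (adjusted p from limma = 0.0501). It was called lower in 7 of 13 alternative analyses, among them voom weights (adjusted p from limma = 0.0123) and leaving out the tail library of size factor 0.719 (log2 fold change -3.19, adjusted p = 0.0105). The tail libraries of Smp_052660 spread from 0 to 23.6, although none reached a head library. Smp_128940 was too abundant to be solved and had a mean of 1965 in heads against 1128 in tails (log2 fold change -0.80, no test).

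Opsins are receptors of the rhodopsin type that detect light by means of bound retinal. The 2 tested opsins went in opposite directions. Smp_164140 had levels of 3.14, 10.2 and 16.3 in heads and of 30.6, 31.2 and 56.3 in tails, with all tail libraries above all head libraries. Its log2 fold change was 1.99, with a limma difference of 2.06 ± 0.56 (SE, adjusted p = 0.0129). Its head libraries rose in the same order as those of the tyrosinase, with a ratio of 5.20 between the highest and the lowest, and the log2 fold change was 2.56 without the head library of size factor 2.08 and 1.57 without that of 2.55. Smp_180350 had levels of 6.27, 14.05 and 11.04 in heads and of 1.39, 0 and 6.26 in tails and was called lower in tails (log2 fold change -2.04, adjusted p from limma = 0.0339). That call rests on 3 tail reads, and it was lost without any 1 of the libraries except the tail library of size factor 0.320, without which the log2 fold change was -3.91. The rhabdomeric opsin beside it (Smp_180030), of the kind used by invertebrate eyes, had 1 read, in a head library.

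Orphan receptors have a rhodopsin-type sequence and no known ligand. Of 21, 19 were tested, 15 were called lower in tails (78.9%) and none higher, against 40.1% and 22.6% of all genes tested. In 18 all tail libraries were below all head libraries (94.7%, against 45.8% of all genes tested). Their median log2 fold change was -1.70. Smp_056080 had levels of 16.5, 22.1 and 22.1 in heads and of 6.95, 2.84 and 0 in tails, the largest change among those with reads in both groups that were called (log2 fold change -2.63, or -3.83 without the tail library of size factor 0.719, adjusted p from limma = 0.0106). Its neighbour Smp_056060 had levels of 101, 91.5 and 77.7 in heads and of 29.2, 8.51 and 21.9 in tails (log2 fold change -2.18, adjusted p from limma = 0.00273). In another adjacent pair, Smp_170620 had levels of 139, 119 and 151 in heads and of 47.3, 22.7 and 25.04 in tails (log2 fold change -2.11, adjusted p from limma = 0.000831). The other of that pair, Smp_170610, was at 0 in tails with 5.49, 4.68 and 5.28 in heads, at least 2.39-fold higher than 3 tail reads allow (adjusted p from limma = 0.000656), with a counting interval that ended at -0.88. So both genes of each pair were lower in tails.

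Further orphan receptors past a log2 fold change of -2 were Smp_137980 (-2.47, adjusted p from limma = 0.000627), Smp_153210 (-2.38, 0.0163) and Smp_012920 (-2.05, 0.0328). Smp_137980 had levels of 43.9, 43.00 and 35.03 in heads and of 6.95, 5.67 and 9.39 in tails, with tail libraries close to each other. Smp_153210 had levels of 22.3, 17.9 and 15.8 in heads and of 1.39, 0 and 9.39 in tails, and Smp_012920 had levels of 21.6, 25.97 and 18.7 in heads and of 9.73, 0 and 6.26 in tails, each with a tail library at 0. The call of Smp_153210 was lost without the head library of size factor 2.55 or 2.35 (adjusted p from limma = 0.0609 and 0.0520), and leaving out the tail library of 0.320 gave a log2 fold change of -4.75. The call of Smp_012920 was lost without any 1 of the head libraries (adjusted p from limma of 0.0756 to 0.101), and leaving out the tail library of 0.719 gave a log2 fold change of -2.82. Smp_091950 was at 0 in tails with 2.35, 1.70 and 2.88 in heads, and its counting interval reached 0.38, so that the absence was within counting error although limma called it (adjusted p = 0.00556). The 2 orphan receptors with the highest means were Smp_164730, at levels of 424, 450.0 and 378 in heads and of 221, 130.5 and 175 in tails (log2 fold change -1.25, adjusted p from limma = 0.00121), and Smp_172810, at levels of 315, 297 and 257 in heads and of 102, 62.4 and 62.6 in tails (-1.94, 0.000335). At the other end, Smp_203400 and Smp_204060 had 1 read in heads and 1 in tails each and were not tested; the higher mean in tails that this gives was not distinguishable from 0 at this depth. Smp_083940 had levels of 0.784, 0.851 and 1.44 in heads and of 4.17, 0 and 0 in tails and was not called (adjusted p from limma = 0.798).

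The 17 other G protein coupled receptors, 12 of them annotated as fragments, had a median log2 fold change of -1.66. Of 16 tested, 13 were called lower in tails (81.2%) and none higher, against 40.1% and 22.6% of all genes tested. Smp_023710 had levels of 24.3, 16.6 and 11.04 in heads and of 1.39, 0 and 0 in tails, from 124 head reads and 1 tail read. Its log2 fold change was -5.22, with a counting interval of -9.94 to -2.12 (adjusted p from limma = 0.000614). In annotation order this fragment lies between Smp_117340 and Smp_134960, both labelled peptide (allatostatin:somatostatin). Of that pair, the first was at 0 in tails and the second was not called. Smp_134100 was at 0 in tails with 3.53, 4.68 and 1.92 in heads, at least 1.59-fold higher than 3 tail reads allow (adjusted p from limma = 0.00343), with a counting interval that ended at -0.26.

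Smp_128710 had levels of 57.2, 63.00 and 63.3 in heads and of 6.95, 8.51 and 18.8 in tails (log2 fold change -2.42, adjusted p from limma = 0.00122). Smp_132220 had levels of 26.3, 22.99 and 23.99 in heads and of 9.73, 0 and 6.26 in tails (log2 fold change -2.20, adjusted p from limma = 0.0257). Smp_169680 had levels of 7.84, 5.53 and 4.32 in heads and of 1.39, 2.84 and 0 in tails (log2 fold change -2.07, adjusted p from limma = 0.0287). All 3 were lower in every tail library than in any head library, on 2 to 14 tail reads. The calls of Smp_132220 and Smp_169680 were lost without any 1 of the head libraries, with adjusted p from limma of 0.0712 to 0.0792 and of 0.0525 to 0.0931. Leaving out 1 tail library gave Smp_132220 log2 fold changes of -2.96 (size factor 0.719) and -1.61 (0.352), and Smp_169680 one of -3.08 (0.352). The fragment with the highest mean among those tested, Smp_132730, had levels of 236, 256 and 230.3 in heads and of 73.7, 65.2 and 97.03 in tails (log2 fold change -1.61, adjusted p from limma = 0.000380). The most abundant of this role, Smp_170350, was nearly even, at 1089 in heads against 901 in tails (log2 fold change -0.27, no test), with 852, 936 and 914 in the tail libraries. Smp_140620 had levels of 5.10, 7.66 and 0.960 in heads and of 2.78, 5.67 and 3.13 in tails, with overlapping groups and widely spread head libraries (log2 fold change -0.24, adjusted p from limma = 0.996). Smp_151190, the cGMP enzyme that the words also matched, had levels of 266, 276 and 239.9 in heads and of 113, 65.2 and 113 in tails (log2 fold change -1.43, adjusted p from limma = 0.00136).

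The receptors act through trimeric G proteins. The 17 genes for G protein subunits had a median log2 fold change of -0.46, and of 7 tested 2 were called lower in tails (28.6%, against 40.1% of all genes tested) and none higher. By mean, 11 were lower and 6 higher in tails, the latter led by Smp_021070, at 441 in heads against 1104 in tails (log2 fold change 1.32, no test). The 2 were a Gs subunit (Smp_172640), at 47.9 in heads against 9.10 in tails (log2 fold change -2.40, adjusted p from limma = 0.000776), and the alpha o subunit (Smp_016630), at 343 in heads against 211 in tails (-0.70, 0.0186). Regulators of G protein signalling, which speed the switching off of the alpha subunit, had a median of -1.30 over 9 genes. Of 8 tested, 5 were called lower, from Smp_062760 (284 in heads against 38.1 in tails, log2 fold change -2.90, adjusted p from limma = 0.000953) to Smp_123050 (283 in heads against 115 in tails, -1.30, 0.00229). Arrestins, which bind activated receptors and end their signal, had a median of -1.31 over 5 genes. Of 4 tested, 3 were called lower, from Smp_152290 (192 in heads against 46.2 in tails, log2 fold change -2.05, adjusted p from limma = 0.000146) to Smp_126080 (496 in heads against 265 in tails, -0.90, 0.000687).

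The receptor kinases mark activated receptors for arrestin. Of the 2 genes, G protein coupled receptor kinase 4 (Smp_123640) was tested and was lower in tails, at 569 in heads against 370.3 in tails (log2 fold change -0.62, adjusted p from limma = 0.00128), while the rhodopsin kinase was not tested and had a log2 fold change of -0.61. Of 4 adenylate cyclases, which make cyclic AMP, 3 were tested and 1 was called lower (33.3%, against 40.1% of all genes tested). It was Smp_168980, at 499.7 in heads against 228 in tails (log2 fold change -1.13, adjusted p from limma = 0.000831). Phospholipase C beta (Smp_044820), which cuts a membrane lipid to release calcium in response to some receptors, was the one such gene and was higher in tails. It had levels of 96.1, 102 and 83.5 in heads and of 346, 190.1 and 178 in tails (log2 fold change 1.35, adjusted p from limma = 0.00426).

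Genes of neuropeptide processing had a lower mean in tails in all 9 cases, with a median log2 fold change of -2.02, although most were too abundant to be solved. Both of the 2 tested were called lower. They were an amidating enzyme (Smp_199090), at 406 in heads against 96.96 in tails (log2 fold change -2.07, adjusted p from limma = 0.000242), and furin 1 (Smp_160240), at 231 in heads against 154 in tails (-0.58, 0.00941). The largest difference of the list, without a test, was that of neuroendocrine convertase 2 (Smp_077980), which cuts precursors in nerve cells, at 1982 in heads against 279.6 in tails (log2 fold change -2.83). Among the neuron markers, 16 were tested, of which 11 were called lower (68.75%) and 3 higher (18.75%), against 40.1% and 22.6% of all genes tested. They ranged from choline acetyltransferase (Smp_146910), the enzyme that makes acetylcholine, at 309 in heads against 28.2 in tails (log2 fold change -3.45, adjusted p from limma = 0.000174), to a synaptotagmin (Smp_206290), at 90.05 in heads against 409 in tails (2.18, 0.000323). The neuron markers had a median log2 fold change of -1.15 and the 83 receptors and peptides -1.63, which was not tested as a difference.

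**Figure D5:**
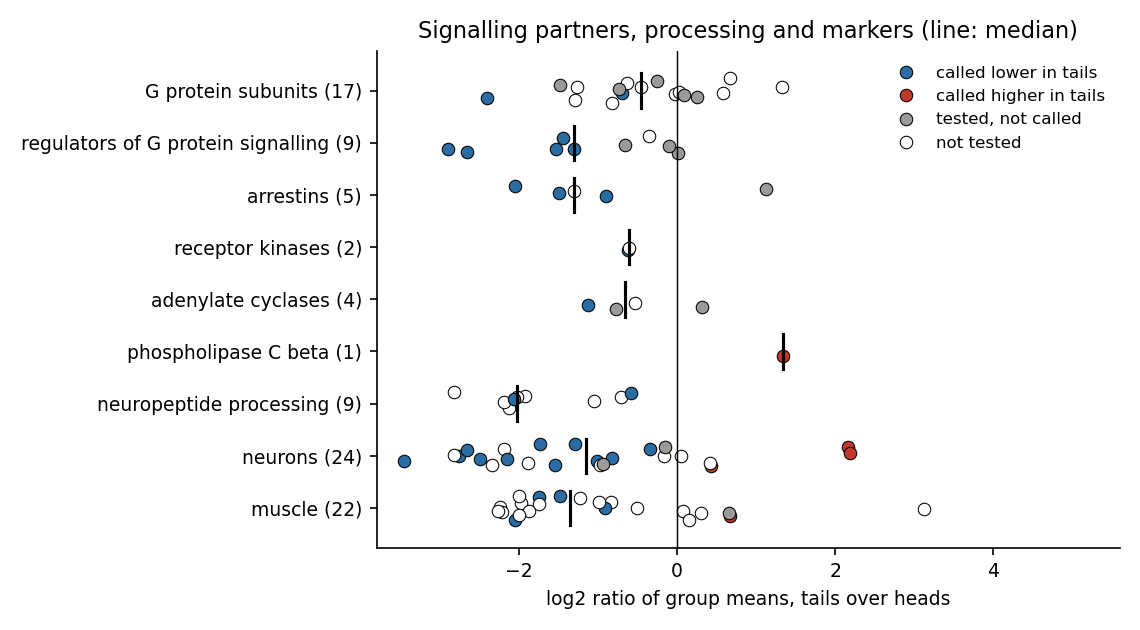
Log2 ratio of group means, tails over heads, for genes of the signalling lists, peptide processing and the neuron and muscle lists, chosen by name. Each point is 1 gene, the black line is the median of the list and the number of genes is in parentheses. The muscle list includes Smp_046060, labelled non muscle, and Smp_155840, labelled cellular myosin. The medians run from -2.02 for peptide processing to 1.35 for the 1 phospholipase C beta gene; white points could not be tested, most of them because they were too abundant.

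Summed over the 89 genes with reads solved in both groups, the normalized counts of receptors and peptides were 6208, 6499.9 and 6062 in heads and 2959, 2091 and 2629 in tails. The 3 head libraries thus lay close together, and every tail library was below all of them. By role, the sums of the group means over all genes had log2 ratios of -2.18 for the muscarinic, -1.61 for the peptide, -1.53 for the amine, -1.38 for the orphan, -0.84 for the metabotropic glutamate and -0.76 for the other G protein coupled receptors. For the genes grouped as peptide precursors the sum was 203 in heads and 401 in tails, a log2 ratio of 0.98 in the opposite direction. Smp_041880, labelled only peptide (allatostatin:somatostatin), made up 379 of that tail sum. The labelled precursors were lower in tails, Smp_159950 at 107 in heads against 2.09 in tails and Smp_088360 at 49.0 against 5.39. By sum, opsins were also higher in tails, at 20.5 and 41.9, and 39.4 of the tail sum was Smp_164140.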

How the data were processed

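RNA of 3 head and 3 tail libraries was sequenced. Per the labels and the study's methods, the authors used STAR 2.5.0b to map them to the WormBase ParaSite v4 genome and annotation and tested tails against heads with DESeq 1.22. Which program counted reads, whether it used the strand and how it treated reads shared by similar receptor genes are not given in the sources used here. Deposited signal values are means, over all libraries and over each group, of read numbers that the authors divided by size factors. The table also holds the authors' fold changes with their log2, p-values and adjusted p-values, which were not used. Columns of single libraries were 0 in number.

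Whole reads of the libraries were solved from each group mean, up to a mean of 700 in heads and 1000 in tails, with size factors found from the lowest means. One solution was found for 5908 of 5928 head means and 6441 of 6441 tail means. Tested on simulated data, 925 of 930 single solutions in heads and 963 of 963 in tails were right. A shifted mean that no reads give was still solved for 322 of 1000 in heads and 18 of 1000 in tails, so a solution is no check of itself in heads. Where the mean was above 200 in heads, libraries were assumed to differ by at most 3-fold, and above 500 by at most 2-fold. The same 3-fold limit chose between several solutions at lower head means and in tails, except at the lowest means. For such genes the closeness of libraries was partly assumed.

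The comparison used limma 3.58.1 (R 4.3.3), with a trend of variance on mean level, on log2(normalized count + 1) of genes with at least 10 reads, with Benjamini-Hochberg adjustment. The pseudocount of 1 understates the change of low genes. Simulated for this comparison over 5121 genes, it called 97 of 100 genes changed 4-fold, 99 of 100 changed 8-fold and 8 of 4921 unchanged. The lowest genes were not among those changed, and every gene was given the same spread between libraries. Far fewer genes were changed than the data called. These rates therefore do not carry over to low genes or to genes whose libraries spread widely. Of the 92 genes, 7 had too few reads and 3 had head means too high to be solved.

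The genes and lists were chosen with earlier results of these data known. Named with values were all peptide precursors, muscarinic, metabotropic glutamate and opsin genes, called genes with a log2 fold change beyond 2 in either direction, those higher in tails with a mean of at least 10, those at 0 in 1 group with at least 10 reads or a mean of at least 5 in the other, the 2 highest and 2 lowest of each role, and the 2 of each role whose libraries spread most. Smp_178420, Smp_202470, Smp_159860, Smp_203500, Smp_145520, Smp_159830, Smp_157020, Smp_021070 and the neuron and convertase genes were added after their values were seen. Pathway genes named were the largest and smallest change among those called. Alternatives changed the pseudocount, read minimum, scaling, weights, threshold, libraries and gene set.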

Additional observations from a re-analysis of the deposited data

How the results depend on the processing

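The number called lower was 57 of 82 and stayed within 1.5 times of that under every alternative run, from 44 at an adjusted p under 0.01 to 71 with tails scaled to equal group totals; the number called higher stayed between 2 and 4. That scaling lowers every tail value by 0.43 on the log2 scale, and it moved the calls over all genes to 55.6% lower and 11.2% higher. Scaling tails to a median log2 fold change of 0 over genes with a mean of at least 100 gave 63 lower and 3 higher, against 45.2% and 18.5% of all genes. Leaving out each library in turn gave 49 to 63 genes lower and 3 to 4 higher. Over all genes tested, the same runs called 31.7% to 45.2% lower and 17.5% to 25.1% higher. For the threshold of 0.01, the share over all genes is not given here. The median log2 fold change, -1.63, was -1.32 with a pseudocount of 5, -2.06 with equal totals, -1.77 with the median scaling, and -1.76 to -1.48 without each library. Of the 57 genes called lower, 47 kept the call in every setting at the 0.05 threshold, as did all 3 called higher, and no named gene that was called changed direction. Calls lost in at least 1 setting were those of Smp_012920, Smp_091950, Smp_132220, Smp_137320, Smp_152540, Smp_153210, Smp_169680, Smp_180350, Smp_196080 and Smp_203500, with a highest adjusted p from limma of 0.113. Of the 22 genes tested and not called, 17 were called in at least 1 setting, 16 of them as lower in tails and Smp_178420 as higher. Runs that leave out a library have fewer degrees of freedom. Without a head library, 49 to 51 genes were called lower (31.7% to 32.6% of all genes tested). Without a tail library, 58 to 63 were (37.4% to 45.2% of all genes tested). Why calls were lost or gained was not tested. No paired analysis was possible because the deposited columns carry no replicate numbers and the solved libraries are known by size factor alone. Depth limits low levels more in tails than in heads: 3 reads over the 3 tail libraries equal 2.16 normalized counts, against 0.43 in heads.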

Other observations

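The 5 genes that matched the words but had no reads in either group were the dopamine receptors Smp_043300 and Smp_043320 and the orphan receptors Smp_083950, Smp_177720 and Smp_167870. A count of 0 allows up to 2.16 normalized counts in tails and 0.43 in heads, so they were not detectable at this depth. The 92 genes include 9 at 0 in tails and 0 at 0 in heads, and the deeper sequencing of heads moves with that difference.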
